A study of Mus musculus with 16 samples.

Results

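Microglia were added for 6 h to mouse cortical neurons that already carried fibrils of α-synuclein, and these cultures were compared with fibril-loaded neurons kept alone. The libraries were chosen by the treatment named in their titles and number 8 of the 16 in the series, 4 fibril-loaded co-cultures and 4 cultures of fibril-loaded neurons alone. All were primary cortical neurons from C57BL/6 mouse embryos, grown for 14 days, and all 8 had received 0.1 µM of α-synuclein fibrils labelled with the dye Atto488 over 16 h before a wash. The remaining 8 libraries, untreated neurons with and without microglia, entered the fit and are quoted only beside the values of the loaded cultures. The labels state neither where the microglia came from, nor how many were added, nor whether they were removed before RNA was isolated, nor whether libraries of a group came from separate cultures or animals. The p-values below therefore rest on differences among libraries that may be no more than technical.

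Microglia are the resident phagocytes of the brain, and α-synuclein is a presynaptic protein whose fibrils accumulate in Parkinson's disease. Neurons that take up fibrils route them to endosomes and lysosomes, and microglia in contact with neurons can exchange material with them through thin actin-based bridges called tunnelling nanotubes, which the series names. Cultures prepared from embryonic cortex can also hold astrocytes and precursors of oligodendrocytes, the glia that make myelin. In bulk RNA such as this, fewer cells of a type and less RNA per cell cannot be told apart.

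Counts came from the 3′ ends of polyadenylated transcripts. The 8 libraries held 6511516 to 11671689 counts, detected 10817 to 12087 genes, and gave 9.35% to 21.9% of their counts to Rn45s, the ribosomal RNA precursor. Libraries of one group differed widely, with a correlation of log2 CPM (each count scaled to a common library size by TMM) of 0.645 to 0.757. The biological coefficient of variation, estimated over all 16 libraries of the series, was 1.17. Co-culture replicate 1 stood apart, with the fewest counts and 666 genes at 0 whose mean over the other libraries was at least 100, against 124 to 524 such genes in the other 7 libraries. Of the neuronal markers, Map2 and Ncam1, a microtubule protein and an adhesion molecule, were at 637 to 910 and 897 to 2223 CPM in co-cultures, against 392 to 1072 and 527 to 1784 CPM in neurons alone. They overlapped between the groups, whereas 18 of the 22 tested neuronal identity genes were lower in co-cultures, with a median log2 change of -1.17.

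The co-culture label was visible in 1 library of 4. Of 26 listed microglial identity genes, 25 had counts deposited. Their summed transcripts reached 1660, 46.9, 120 and 53.6 CPM in co-cultures, against 116, 41.1, 48.5 and 18.4 CPM in neurons alone. Csf1r, the receptor that keeps microglia alive, was at 286, 0, 0.335 and 0 CPM in co-cultures and at 5.46, 0, 0 and 0 CPM in neurons alone. C1qa, a chain of the complement protein C1q, was at 221, 0, 13.7 and 0 CPM in co-cultures and at 4.71, 0, 0 and 3.73 CPM in neurons alone. Tmem119 and P2ry12, 2 defining markers, had no count in any of the 8 libraries. Of the 25 genes, 5, 16, 9 and 20 were at 0 in co-cultures, against 11, 15, 20 and 19 in neurons alone. Of the 15 microglial genes tested, 14 were higher and none passed the test, and their median log2 change of 3.86 was 0.92 without co-culture replicate 1. Of the 15, 9 were higher and 6 lower without that library. With all libraries, the only 1 of the 15 at an unadjusted p under 0.05 was lower in co-culture. Olfml3 and Fcrls, also on the list, had no count in co-cultures, against 231 and 75 counts in neurons alone. Spi1, Itgam, Mpeg1 and Ptprc showed the reverse, with 176, 163, 265 and 60 counts in co-cultures and none in neurons alone.

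**Figure D1:**
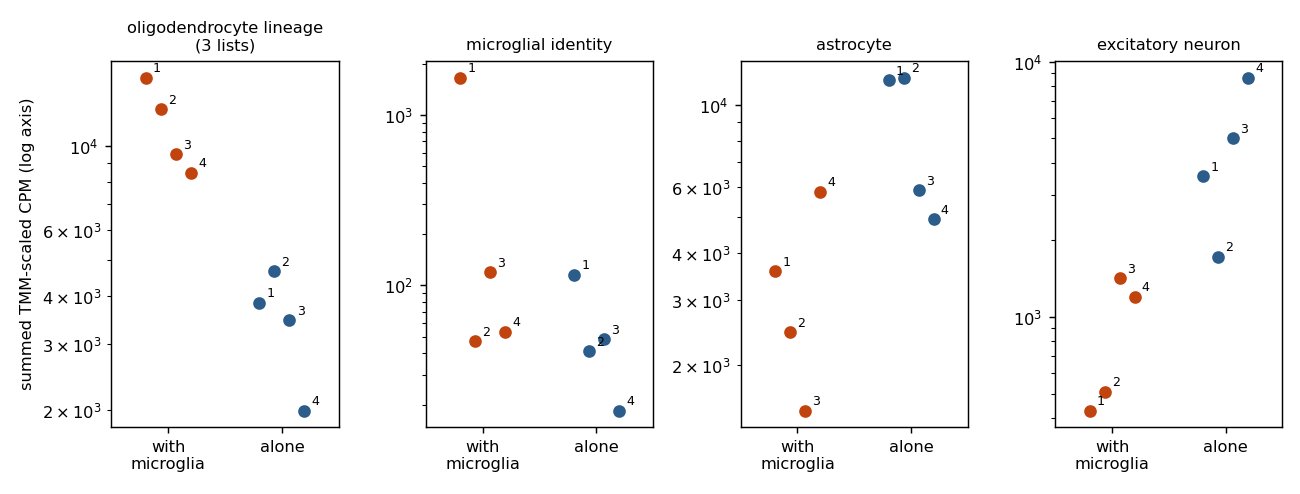
Summed TMM-scaled CPM (log axis) of the oligodendrocyte-lineage, microglial, astrocyte and excitatory-neuron gene lists in each of the 4 co-culture and 4 neuron-only libraries of fibril-loaded cultures, with replicate numbers beside the points. The groups do not overlap for oligodendrocyte-lineage or excitatory-neuron genes; microglial genes reach 1660 CPM in co-culture replicate 1, against 46.9 to 120 CPM in the other co-cultures.

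Across genes, the genes that rose in co-cultures over loaded neurons alone included 3 oligodendrocyte precursor genes, Pdgfra, Lhfpl3 and Cacng4, and those that fell were Thy1, Camk2n1, Gpi1, Pdhb, Sqstm1 and Cd151. Of 13139 genes tested with edgeR's quasi-likelihood test over all 16 libraries, 15 (0.114%) passed a Benjamini-Hochberg adjusted p of 0.05, 9 higher (0.0685%) and 6 lower (0.0457%) in co-culture. An unadjusted p under 0.05 was reached by 1540 genes (11.7%), 717 higher (5.46%) and 823 lower (6.26%). The median log2 change over all tested genes was -0.03. All 15 genes that passed had groups that did not overlap, as did 830 of the 13139 tested genes (6.32%), 448 of them higher (3.41%) and 382 lower (2.91%). The count depended on the test and on single libraries: DESeq2 called 492 genes, and the 8 loaded libraries fitted alone called 0, with 1050 at an unadjusted p under 0.05. Among the 8 fits that each left out 1 loaded library, the count was lowest without co-culture replicate 2 (1 gene) and highest without neurons alone replicate 4 (26 genes), and Pdgfra passed in all 8. Cilk1 and Thy1 passed in 6 of these fits, Camk2n1 in 5, Gpi1 and Marcks in 4, Lhfpl3 in 3, Pdhb, Srek1, Sulf2, Cd151 and Cacng4 in 2, Zfp462 and Sqstm1 in 1 and Enpp6 in 0.

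**Figure D2:**
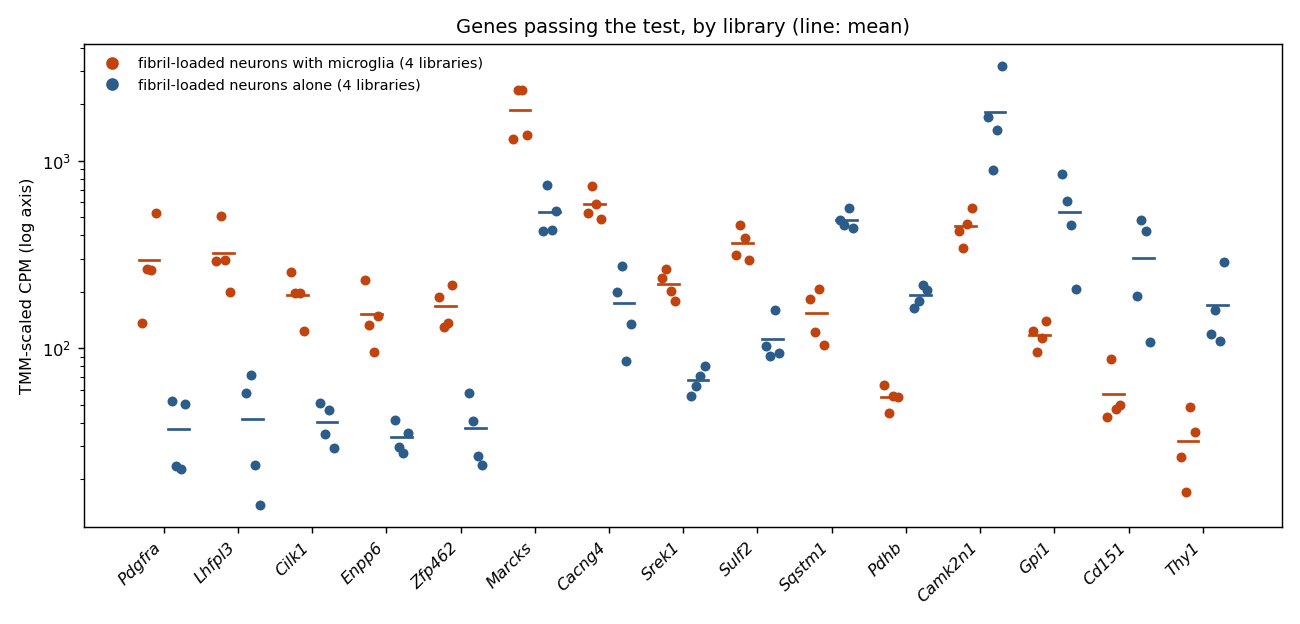
TMM-scaled CPM (log axis) of the 15 genes that passed the test, in 4 co-culture and 4 neuron-only libraries of fibril-loaded cultures, ordered by log2 change; short lines are group means. For each gene the 4 co-culture points lie wholly above or wholly below the 4 neuron-only points.

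Pdgfra (chr5:75152292-75198215, plus strand, GRCm38), the platelet-derived growth factor receptor of oligodendrocyte precursors, was at 136, 264, 261 and 523 CPM in co-cultures, against 52.1, 23.5, 22.8 and 50.2 CPM in neurons alone. Every co-culture exceeded every library of neurons alone, and the log2 change was 2.99 ± 0.41 (SE; adjusted p = 0.00237). Lhfpl3 (chr5:22746059-23275597, plus strand), a membrane protein that marks the same precursors, was at 293, 503, 295 and 199 CPM in co-cultures, against 57.6, 71.7, 23.7 and 14.6 CPM in neurons alone. It rose by 2.94 ± 0.52 on the log2 scale (SE; adjusted p = 0.0228); the gene overlaps the counted model 6030443J06Rik on its own strand, so its reads are less certain. Cacng4 (chr11:107732357-107794557, minus strand), an auxiliary subunit of AMPA-type glutamate receptors, was at 524, 734, 587 and 488 CPM in co-cultures, against 198, 274, 85.0 and 135 CPM in neurons alone. Its rise was 1.75 ± 0.34 (log2, SE; adjusted p = 0.0388).

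These 3 belong to a list of 12 oligodendrocyte precursor surface genes, of which all 12 were tested and all 12 were higher in co-culture. The list's median log2 change was 2.09, beside -0.03 over all genes. Of the 12, 9 had co-cultures wholly above neurons alone, as did 3.41% of all tested genes. Their summed level was 5776, 4726, 2976 and 2836 CPM in co-cultures, against 1333, 1381, 735 and 476 CPM in neurons alone. Among members that did not pass, Cspg4, which encodes the NG2 proteoglycan, was at 80.3, 301, 221 and 109 CPM in co-cultures, against 43.7, 46.8, 59.2 and 26.7 CPM in neurons alone (log2 change 2.01 ± 0.45, SE; adjusted p = 0.0682). Plxnb3, a semaphorin receptor, was at 91.8, 75.1, 68.0 and 82.2 CPM in co-cultures, against 6.33, 15.3, 10.5 and 12.4 CPM in neurons alone (2.83 ± 0.60, SE; adjusted p = 0.0645). Gpr17, a receptor of precursors that are about to differentiate, overlapped, at 3053, 1445, 678 and 555 CPM in co-cultures and 642, 565, 293 and 117 CPM in neurons alone (1.83 ± 0.65, SE; adjusted p = 0.309). Without co-culture replicate 1 or its untreated counterpart, the 2 libraries rich in microglial transcripts, the list's median was 2.07.

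Transcription factors of the lineage had no member past the test, although 9 of 10 were higher and the median was 1.81. Olig2, which specifies the lineage, was at 159, 1291, 862 and 1001 CPM in co-cultures, against 182, 261, 77.8 and 186 CPM in neurons alone; co-culture replicate 1 lay among the neurons alone and the other 3 co-cultures lay above all 4 (2.23 ± 0.46, SE; adjusted p = 0.0604). Olig1, its close relative, was at 1203, 1733, 1397 and 1730 CPM in co-cultures, against 650, 683, 445 and 351 CPM in neurons alone, with no overlap (1.51 ± 0.36, SE; adjusted p = 0.0895). Sox10, a factor that drives myelin genes, overlapped by 1 pair of libraries, at 1015, 469, 436 and 229 CPM in co-cultures and 166, 164, 229 and 107 CPM in neurons alone.

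Of 18 genes of differentiating oligodendrocytes and myelin, 15 could be tested, 14 were higher and 1 passed, with a median of 1.42. That gene was Enpp6 (chr8:46986887-47096762, plus strand), a choline phosphodiesterase of newly forming oligodendrocytes, at 230, 132, 95.0 and 147 CPM in co-cultures, against 41.6, 29.7, 27.7 and 35.4 CPM in neurons alone (2.17 ± 0.44, SE; adjusted p = 0.0487). It did not pass in any fit that left out 1 of the 8 libraries (adjusted p 0.0624 to 0.147). Mbp, myelin basic protein, overlapped, at 235, 333, 559 and 353 CPM in co-cultures and 101, 195, 205 and 249 CPM in neurons alone.

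The 5 other genes that rose have various roles. Cilk1 (chr9:78109080-78172114), a kinase of the primary cilium, was at 256, 196, 196 and 123 CPM in co-cultures, against 50.9, 34.7, 47.0 and 29.3 CPM in neurons alone (2.25 ± 0.36, SE; adjusted p = 0.0149). Marcks (chr10:37133375-37138920, minus strand), a protein kinase C substrate that binds actin at the membrane, was at 1308, 2375, 2378 and 1363 CPM in co-cultures, against 420, 741, 427 and 540 CPM in neurons alone (1.80 ± 0.32, SE; adjusted p = 0.0209). The lowest co-culture value of Marcks exceeded the highest value in neurons alone, and its relative Marcksl1 also had no overlap, at 108, 304, 285 and 147 CPM in co-cultures, against 63.0, 54.8, 64.6 and 95.5 CPM in neurons alone, without passing (1.60 ± 0.39, SE; adjusted p = 0.0917).

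Zfp462 (chr4:54945048-55083563, plus strand), a zinc finger protein of chromatin, was at 187, 130, 136 and 217 CPM in co-cultures, against 57.8, 41.0, 26.8 and 23.7 CPM in neurons alone (2.17 ± 0.40, SE; adjusted p = 0.0291). Sulf2 (chr2:166073089-166155663, minus strand), an extracellular sulfatase that trims heparan sulfate, was at 313, 453, 386 and 295 CPM in co-cultures, against 103, 91.2, 159 and 94.7 CPM in neurons alone (1.69 ± 0.33, SE; adjusted p = 0.0388). It overlaps Ncoa3 on the opposite strand, and the strand setting of the counting was not given in the sources used here. Among 22 tested fibril-binding receptors and heparan sulfate carriers, 9 were higher and 13 lower, none passed, and the median was -0.16 (0.03 with library totals as the scaling, -0.33 without neurons alone replicate 2 and 0.0051 without neurons alone replicate 1).

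Srek1 (chr13:103739348-103774608, minus strand), a serine- and arginine-rich splicing factor, was at 235, 264, 202 and 178 CPM in co-cultures, against 55.6, 63.0, 71.0 and 80.1 CPM in neurons alone (1.70 ± 0.33, SE; adjusted p = 0.0388). It was the only one of 31 splicing factors to pass, but 29 of the 31 were higher, with a median of 0.69. Of the 31, 7 were higher without overlap, beside 3.41% of all tested genes. Summed over the list, the co-cultures lay closely together at 8871, 8370, 8349 and 8139 CPM, and so did neurons alone at 5219, 5872, 5969 and 5155 CPM, with a gap between the groups. Hnrnpa3, an RNA-binding protein of the spliceosome's surroundings, was at 280, 415, 444 and 409 CPM in co-cultures, against 176, 259, 155 and 178 CPM in neurons alone (1.01 ± 0.28, SE; adjusted p = 0.162). Srrm1, a splicing coactivator, was at 535, 460, 373 and 441 CPM in co-cultures, against 252, 244, 215 and 237 CPM in neurons alone (0.93 ± 0.32, SE; adjusted p = 0.268). The list's median was 0.90 with library totals as the scaling, which moved the median of all genes to 0.18.

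Genes of DNA replication and mitosis were higher in 27 of 29 cases, with a median of 1.15 and no member past the test. Lmnb1, a lamin of the nuclear envelope, was at 500, 327, 488 and 576 CPM in co-cultures, against 144, 32.6, 209 and 68.5 CPM in neurons alone (2.06 ± 0.45, SE; adjusted p = 0.0669). Mki67, a marker of dividing cells, was at 68.0, 88.4, 72.4 and 141 CPM in co-cultures, against 61.0, 22.1, 23.7 and 5.84 CPM in neurons alone (1.72 ± 0.54, SE; adjusted p = 0.224). The summed level overlapped, at 2124, 5922, 5043 and 5322 CPM in co-cultures and 4329, 2575, 2356 and 1407 CPM in neurons alone, since replicate 1 of each group lay among the libraries of the other, and the median was 2.05 without neurons alone replicate 1. Ccnd2, a cyclin of the early cell cycle, ran against the list, at 562, 489, 243 and 573 CPM in co-cultures, against 1374, 1155, 1035 and 645 CPM in neurons alone.

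**Figure D3:**
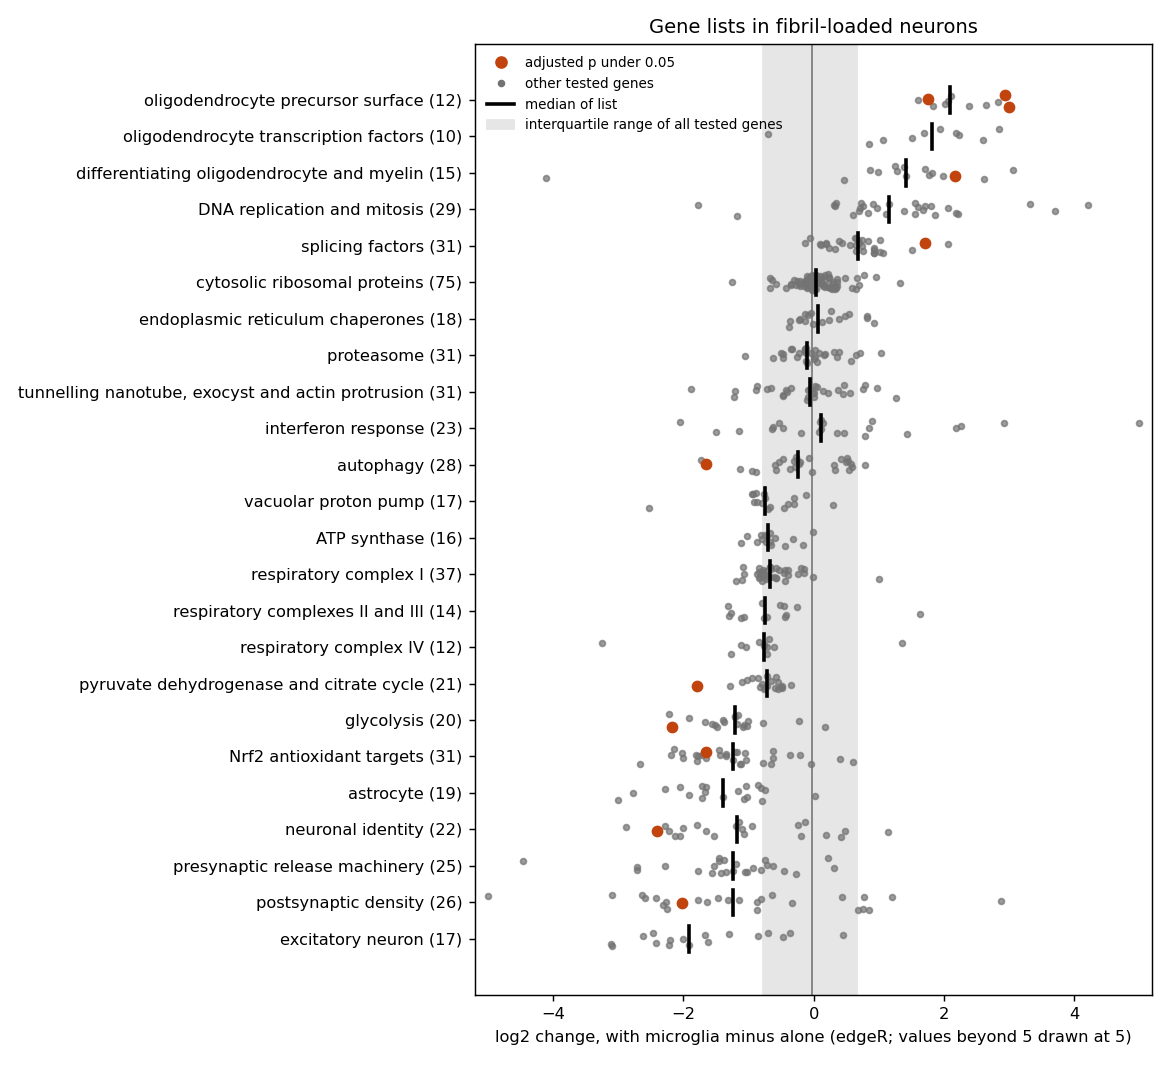
Log2 change (co-culture minus neurons alone, edgeR) of every tested member of 24 gene lists, with the number tested in brackets, the list median as a black bar and genes past the adjusted p of 0.05 in red; the grey band is the interquartile range of all 13139 tested genes. Medians run from 2.09 for oligodendrocyte precursor surface genes to -1.92 for excitatory-neuron genes, with cytosolic ribosomal proteins (0.04), endoplasmic reticulum chaperones (0.06) and the proteasome (-0.10) near 0, each of which changed sign under at least 1 alternative.

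Among the genes that fell, Thy1 (chr9:44043384-44048579, plus strand), a surface glycoprotein of mature neurons, was at 26.3, 17.1, 48.6 and 35.8 CPM in co-cultures, against 119, 160, 110 and 288 CPM in neurons alone (-2.41 ± 0.41, SE; adjusted p = 0.0209). Camk2n1 (chr4:138454314-138460123, plus strand), an inhibitor of the synaptic kinase CaMKII, was at 423, 342, 461 and 555 CPM in co-cultures, against 1709, 885, 1451 and 3192 CPM in neurons alone (-2.02 ± 0.36, SE; adjusted p = 0.0209). In both genes the highest neuron-only value came from replicate 4, the library with the most neuronal transcripts, and the other 3 neuron-only libraries also exceeded every co-culture.

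Neuronal genes as lists were lower in most members but depended on that library. Neuronal identity genes were lower in 18 of 22 cases, with a median of -1.17 that was -0.62 without neurons alone replicate 4, and presynaptic release genes in 23 of 25, with a median of -1.23 that was -0.33 without it. Postsynaptic density genes were lower in 19 of 26 cases with a median of -1.23 (-0.76 without it), and excitatory-neuron genes in 16 of 17 with a median of -1.92 (-1.19 without it). Only Thy1 and Camk2n1 passed among these lists. Summed excitatory-neuron transcripts were 428, 508, 1413 and 1197 CPM in co-cultures, against 3552, 1722, 5016 and 8662 CPM in neurons alone, without overlap but with a wide spread among neurons alone. Neuronal identity transcripts overlapped, at 5932, 4900, 5407 and 4577 CPM in co-cultures and 4065, 4180, 8279 and 15010 CPM in neurons alone.

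Nrgn, a calmodulin-binding protein of excitatory dendrites, was at 150, 215, 584 and 412 CPM in co-cultures, against 2662, 1046, 2997 and 4892 CPM in neurons alone, and did not pass (-3.09 ± 0.67, SE; adjusted p = 0.0874). Grin1, the obligatory NMDA receptor subunit, was at 58.7, 14.7, 57.9 and 31.8 CPM in co-cultures, against 104, 95.7, 289 and 321 CPM in neurons alone (-2.31 ± 0.55, SE; adjusted p = 0.0917). Members of the neuronal identity list did not all lie on one side: Dcx, a microtubule protein of young neurons, was at 159, 177, 155 and 195 CPM in co-cultures, against 63.5, 72.3, 74.5 and 99.1 CPM in neurons alone (1.15 ± 0.37, SE; adjusted p = 0.241). Inhibitory-neuron genes were split, with 8 of 16 higher and 8 lower and a median of -0.13 that was 0.06 with library totals as the scaling. Leaving out 1 library moved that median between -0.92 (without co-culture replicate 3) and 0.42 (without neurons alone replicate 4).

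Energy metabolism held the next genes that fell. Gpi1 (chr7:34201330-34230336, minus strand), the glycolytic enzyme glucose-6-phosphate isomerase, was at 124, 95.0, 113 and 139 CPM in co-cultures, against 851, 610, 454 and 206 CPM in neurons alone (-2.17 ± 0.38, SE; adjusted p = 0.0209). The co-cultures were tightly grouped, and neurons alone were spread widely but all lay above them. Pdhb (chr14:8165996-8173025, minus strand), a subunit of pyruvate dehydrogenase, which links glycolysis to the citrate cycle, was tight in both groups, at 63.9, 45.3, 55.3 and 55.2 CPM in co-cultures, against 164, 178, 218 and 203 CPM in neurons alone (-1.80 ± 0.33, SE; adjusted p = 0.0291).

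Glycolysis genes were lower in 19 of 20 cases, with a median of -1.21. Of the 20, 15 were lower at an unadjusted p under 0.05, beside 6.26% of all tested genes. Without overlap, 9 were lower, beside 2.91% of all tested genes. The summed level of glycolysis genes was 3520, 2629, 2498 and 3565 CPM in co-cultures, against 9612, 8757, 6805 and 5004 CPM in neurons alone. Pfkm, the muscle-type phosphofructokinase of the committed step, was at 78.8, 69.6, 90.0 and 131 CPM in co-cultures, against 351, 271, 273 and 138 CPM in neurons alone (-1.48 ± 0.35, SE; adjusted p = 0.084). Pgk1, phosphoglycerate kinase, was at 310, 357, 317 and 389 CPM in co-cultures, against 810, 928, 683 and 463 CPM in neurons alone (-1.07 ± 0.28, SE; adjusted p = 0.128). Ldhb, a lactate dehydrogenase subunit, overlapped by 1 library, at 143, 99.3, 104 and 314 CPM in co-cultures and 768, 486, 296 and 405 CPM in neurons alone. Over the alternatives run, the median lay between -1.01 with library totals as the scaling and -1.33 without neurons alone replicate 4. Targets of the hypoxia-inducible factor were lower in 13 of 16 cases, with a median of -1.03 (-0.65 without neurons alone replicate 2) and none past the test.

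Downstream of glycolysis, all 21 genes of pyruvate dehydrogenase and the citrate cycle were lower, with a median of -0.72 and Pdhb as the only one to pass. Nuclear-encoded subunits of the respiratory chain were lower in 76 of 79 cases, with a median of -0.71, and none passed. Of the 79, 37 were lower at an unadjusted p under 0.05, beside 6.26% of all tested genes. Without overlap, 23 were lower, beside 2.91% of all tested genes. By complex the medians were -0.67 for complex I, -0.74 for complexes II and III, -0.77 for complex IV and -0.69 for ATP synthase. Cox8a, a small subunit of cytochrome oxidase, was at 1603, 1295, 1232 and 1716 CPM in co-cultures, against 3497, 4511, 2272 and 2431 CPM in neurons alone (-1.12 ± 0.28, SE; adjusted p = 0.0977). Uqcrq, a subunit of complex III, was at 491, 526, 678 and 905 CPM in co-cultures, against 1702, 1965, 910 and 1040 CPM in neurons alone (-1.11 ± 0.32, SE; adjusted p = 0.174). Chchd10, a protein of the mitochondrial intermembrane space, was at 136, 115, 86.1 and 226 CPM in co-cultures, against 606, 1095, 545 and 418 CPM in neurons alone (-2.24 ± 0.48, SE; adjusted p = 0.0669). With library totals as the scaling, the medians of complex I and complex IV were -0.44 and -0.54.

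The autophagy receptor gene Sqstm1 (chr11:50199366-50210827, minus strand) fell as well. Its product p62 binds ubiquitylated cargo and also frees the transcription factor Nrf2, of which Sqstm1 is itself a target. It was at 182, 122, 207 and 104 CPM in co-cultures, against 484, 451, 561 and 435 CPM in neurons alone, without overlap (-1.65 ± 0.33, SE, adjusted p = 0.0398). Its reads overlap Mrnip on the opposite strand, and it passed in 1 of the 8 fits that left out a library. Of 28 autophagy genes 18 were lower and 10 higher, with a median of -0.24 (-0.08 without co-culture replicate 2) and no other member past the test. Lysosomal protein genes were close to the background, with 17 of 25 lower and a median of -0.29 (0.05 without neurons alone replicate 2, -0.44 without co-culture replicate 1 and -0.47 without neurons alone replicate 4). Vacuolar proton pump genes, which acidify lysosomes and synaptic vesicles, were lower in 16 of 17 cases with a median of -0.74.

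Antioxidant targets of Nrf2 were lower in 29 of 31 cases, with a median of -1.23 and Sqstm1 as the only one to pass. Of the 31, 15 were lower at an unadjusted p under 0.05, beside 6.26% of all tested genes. Without overlap, 3 were lower, beside 2.91% of all tested genes. The summed level of Nrf2 targets was 8522, 7036, 5485 and 9668 CPM in co-cultures. In neurons alone it was 29350, 30317, 16441 and 9002 CPM, so that neurons alone replicate 4 lay among the co-cultures. Srxn1, which repairs oxidised peroxiredoxins, was at 221, 152, 207 and 676 CPM in co-cultures, against 1906, 1870, 1129 and 672 CPM in neurons alone (-2.15 ± 0.46, SE; adjusted p = 0.0669). Hmox1, haem oxygenase, was at 484, 246, 189 and 359 CPM in co-cultures, against 1788, 2105, 886 and 353 CPM in neurons alone (-2.0 ± 0.53, SE; adjusted p = 0.164). Fth1, the ferritin heavy chain, did not overlap, at 1519, 1618, 1113 and 2008 CPM in co-cultures, against 8613, 7230, 2733 and 2016 CPM in neurons alone, although copies of this gene elsewhere in the genome make its reads uncertain.

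Astrocyte genes followed the same order of libraries. Their summed level was 3580, 2450, 1511 and 5846 CPM in co-cultures, against 11619, 11815, 5898 and 4921 CPM in neurons alone, so the highest co-culture and the lowest neuron-only library, replicate 4 of each, crossed in both lists. Of 19 astrocyte genes tested, 18 were lower with a median of -1.39 and none passed. Of the 19, 11 were lower at an unadjusted p under 0.05, beside 6.26% of all tested genes. Aldh1l1, a folate enzyme of astrocytes, was at 6.77, 18.8, 20.4 and 13.4 CPM in co-cultures, against 156, 183, 122 and 15.4 CPM in neurons alone (-3.00 ± 0.64, SE; adjusted p = 0.0645). Slc1a2, the main glutamate transporter of astrocytes, was at 872, 483, 255 and 1496 CPM in co-cultures and 2941, 2450, 1175 and 1585 CPM in neurons alone (-1.39 ± 0.62, SE; adjusted p = 0.395). The part of the astrocyte level in the Nrf2 and glycolysis values was not tested; Aldoc is a member of both the astrocyte and the glycolysis lists.

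**Figure D4:**
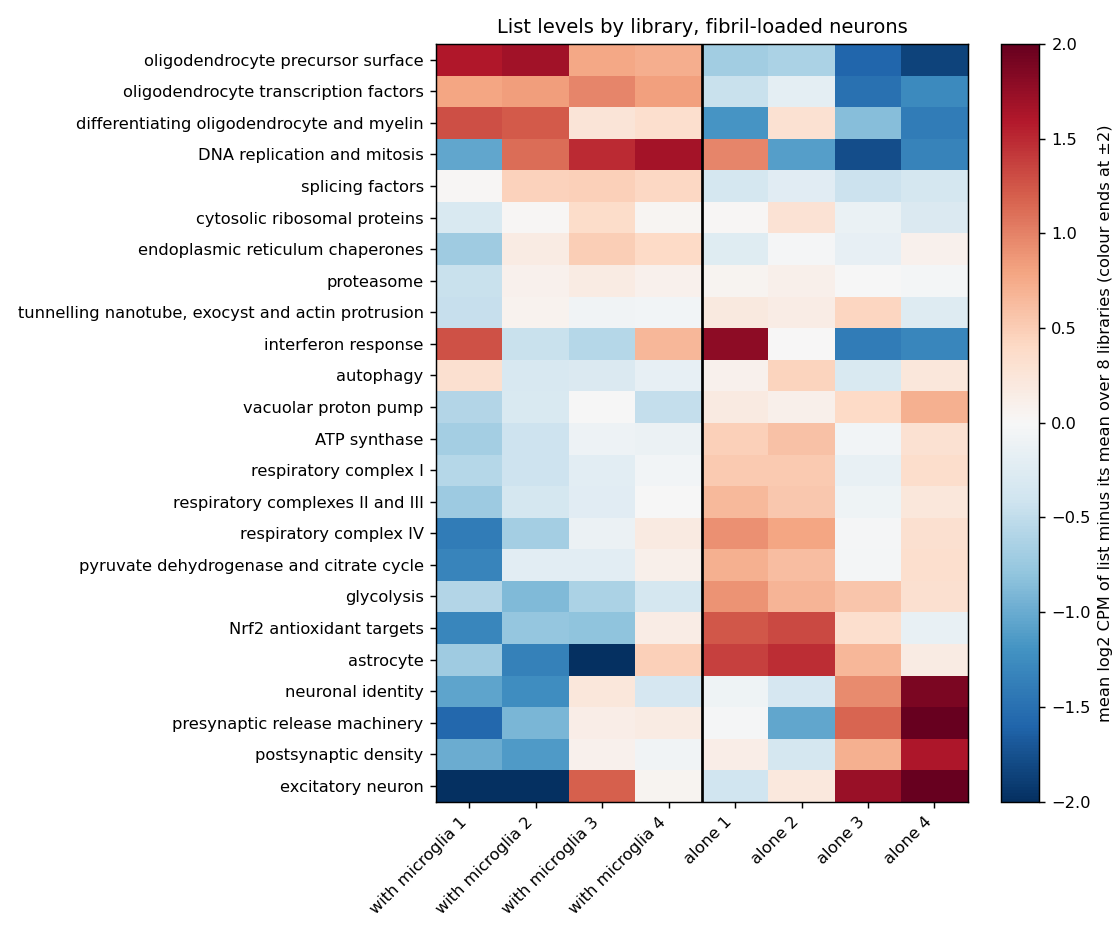
Mean log2 CPM of each gene list in the 8 libraries of fibril-loaded cultures, minus the list's mean over the 8, with co-cultures left of neurons alone; red is above and blue below that mean. Oligodendrocyte precursor and splicing lists are above their mean in all 4 co-cultures, Nrf2 and astrocyte lists are highest in neurons alone replicates 1 and 2, and neuronal lists are highest in neurons alone replicate 4.

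Promoters of the Nrf2 and glycolysis lists are shown because their members were lower together. Each window is the 250 bases before a RefSeq gene start (GRCm38.p6, plus strand, written 5′ to 3′). Capitals mark TGACNNNGC, the core of the antioxidant response element, in Gclm and Prdx1, and ACGTG, a core of the hypoxia response element, in Pgk1 and Pfkm, searched on both strands. Pfkm has several starts, and the window shown is the one farthest upstream. Of its other windows, chr15:98108221-98108470 held 1 match, and chr15:98108306-98108555 and chr15:98111810-98112059 held 0.
Gclm chr3:122245307-122245556: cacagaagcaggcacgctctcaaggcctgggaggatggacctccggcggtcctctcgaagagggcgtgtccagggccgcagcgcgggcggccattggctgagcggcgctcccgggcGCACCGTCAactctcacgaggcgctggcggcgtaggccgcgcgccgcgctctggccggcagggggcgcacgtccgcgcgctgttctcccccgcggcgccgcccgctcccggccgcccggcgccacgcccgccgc
Prdx1 chr4:116685349-116685598: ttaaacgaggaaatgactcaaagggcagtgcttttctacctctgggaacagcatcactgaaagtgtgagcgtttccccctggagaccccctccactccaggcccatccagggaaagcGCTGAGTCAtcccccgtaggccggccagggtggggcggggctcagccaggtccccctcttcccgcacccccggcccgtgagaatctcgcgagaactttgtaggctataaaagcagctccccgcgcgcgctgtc
Pgk1 chrX:106186850-106187099: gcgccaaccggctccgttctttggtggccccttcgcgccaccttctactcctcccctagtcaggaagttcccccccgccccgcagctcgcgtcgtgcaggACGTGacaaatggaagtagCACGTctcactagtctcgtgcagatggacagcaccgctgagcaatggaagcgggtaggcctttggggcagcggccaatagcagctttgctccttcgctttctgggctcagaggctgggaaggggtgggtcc
Pfkm chr15:98092339-98092588: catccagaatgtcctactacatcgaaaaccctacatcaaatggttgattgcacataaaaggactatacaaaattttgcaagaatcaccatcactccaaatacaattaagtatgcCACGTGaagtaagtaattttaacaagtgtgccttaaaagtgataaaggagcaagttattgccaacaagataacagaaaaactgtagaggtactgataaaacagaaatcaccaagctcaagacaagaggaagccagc
The match in Gclm begins 134 bases and that in Prdx1 133 bases before the start, both on the strand opposite to the gene. TGACNNNGC was present for 7 of the 25 Nrf2 genes with a window, and for 11.5% of all 27025 genes with one. ACGTG, which can overlap its own reverse complement as in Pfkm, was present for 9 of 19 glycolysis genes and 18.5% of all genes. It was also present for 11 of 30 splicing factors, a list that was higher in co-culture. Among lists that were lower, it was present for 4 of 13 proton pump genes and 4 of 33 complex I genes. A gene was counted if any of its windows held a match, so genes with several starts had more windows to match. GCGTG, another form of the hypoxia core, was present for 12 of 19 glycolysis genes, 16 of 25 Nrf2 genes and 30.9% of all genes, and GGGCGG, the GC box, for 12, 22 and 35.4% of them. The CCAAT box, the TATA box (letters TATAAA), the E-box forms CAGCTG and also CAGATG, the SOX cores ACAAAG and also ACAAT, and the palindrome of the factor NRF1, searched likewise, were each present for 1 to 10 of the 25 Nrf2 genes and for 4.23% to 37.5% of all genes. The windows of Sqstm1 and Gpi1 held no match to their list's letters. Gclm, a subunit of the enzyme that starts glutathione synthesis, was at 73.0, 83.9, 57.2 and 139 CPM in co-cultures and 350, 274, 256 and 74.1 CPM in neurons alone (-1.43 ± 0.56, SE; adjusted p = 0.334). Prdx1, a peroxiredoxin, was at 371, 437, 434 and 661 CPM in co-cultures and 1367, 1442, 889 and 438 CPM in neurons alone (-1.12 ± 0.39, SE; adjusted p = 0.284).

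The last gene to fall, Cd151 (chr7:141467392-141471473, plus strand), a tetraspanin that organises integrins, was at 43.0, 87.3, 47.3 and 49.8 CPM in co-cultures, against 189, 483, 421 and 108 CPM in neurons alone (-2.40 ± 0.47, SE; adjusted p = 0.0388). The groups did not overlap, although replicate 2 was the highest of each. Among 19 tested tetraspanins 12 were lower and 7 higher. Cd9, another member, overlapped and lay on the other side, at 63.7, 624, 226 and 266 CPM in co-cultures and 81.8, 102, 16.9 and 19.6 CPM in neurons alone (2.42 ± 0.74, SE; adjusted p = 0.232).

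Genes of contact and exchange between neurons and microglia had no member past the test. Of 31 genes of tunnelling nanotubes, the exocyst and actin protrusions, 13 were higher and 18 lower with a median of -0.05 (0.18 with library totals as the scaling, -0.21 without co-culture replicate 1 and 0.01 without neurons alone replicate 3). Ezr, which ties actin to the membrane, was at 186, 45.2, 60.1 and 171 CPM in co-cultures, against 462, 482, 544 and 212 CPM in neurons alone (-1.88 ± 0.55, SE; adjusted p = 0.197). Its relative Rdx lay the other way, at 306, 227, 233 and 216 CPM in co-cultures, against 144, 144, 181 and 111 CPM in neurons alone (0.76 ± 0.29, SE; adjusted p = 0.327).

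Il34, a neuronal ligand of Csf1r that sustains microglia, had no count in any of the 4 co-cultures, against 40.2, 5.02, 6.28 and 13.0 CPM in neurons alone. It was at least 206-fold lower in co-culture with 3 counts over the group as the floor, and did not pass (adjusted p = 0.0917). Such complete absence was rare but not particular to Il34. Of the 13139 tested genes, 21 had no count in any co-culture and counts in all 4 neuron-only libraries, and 15 showed the reverse. Tgfb2, a growth factor to which microglia respond, overlapped, at 9.76, 17.2, 15.4 and 23.0 CPM in co-cultures and 21.2, 87.1, 150 and 109 CPM in neurons alone (-2.49 ± 0.62, SE; adjusted p = 0.106). Interferon response genes were higher in 15 of 23 cases with a median of 0.12 (-0.19 without neurons alone replicate 4 to 0.77 without neurons alone replicate 1), none past the test and none without overlap. Ccl3, a microglial chemokine, was at 50.8, 6.43, 0 and 0 CPM in co-cultures and at 0 in all 4 libraries of neurons alone.

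Other stress genes had no member past the test. Atf5, a transcription factor of the mitochondrial stress response, was at 206, 90.5, 163 and 193 CPM in co-cultures, against 533, 552, 489 and 364 CPM in neurons alone (-1.57 ± 0.37, SE; adjusted p = 0.084), in a list of 22 integrated stress response genes with a median of -0.77. Cdkn1a, the p53 target p21, was at 200, 194, 337 and 249 CPM in co-cultures, against 520, 508, 654 and 665 CPM in neurons alone (-1.26 ± 0.37, SE; adjusted p = 0.188), and 13 of 19 p53 and cell death genes were lower, with a median of -1.08 (-0.71 without co-culture replicate 1 and -0.68 without co-culture replicate 4). Of the Parkinson's disease genes, Fbxo7, a ubiquitin ligase subunit, came nearest to passing, at 253, 155, 74.8 and 94.3 CPM in co-cultures, against 27.4, 44.0, 25.4 and 43.5 CPM in neurons alone (2.04 ± 0.43, SE; adjusted p = 0.0604). That list of 20 genes had a median of -0.15, which was 0.04 with library totals as the scaling, -0.26 without co-culture replicate 3 and 0.14 without neurons alone replicate 4. Immediate early genes of neuronal activity had a median of -0.62, which was 0.20 without neurons alone replicate 4, -0.29 without co-culture replicate 1 and -1.23 without co-culture replicate 3.

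Further genes short of the threshold, with adjusted p of 0.0604 to 0.0682, included Elfn2, a synaptic organiser, at 375, 291, 162 and 150 CPM in co-cultures, against 64.9, 95.9, 53.5 and 58.1 CPM in neurons alone. Cask, a synaptic scaffold kinase, was at 286, 260, 168 and 119 CPM in co-cultures, against 94.2, 30.5, 20.5 and 54.8 CPM in neurons alone. Dscam, an adhesion molecule of neurites, was at 199, 403, 301 and 202 CPM in co-cultures, against 36.1, 118, 56.6 and 82.7 CPM in neurons alone. These 3 genes were higher in every co-culture than in every library of neurons alone. Which cells of the cultures their transcripts came from was not tested. The RNA processing genes Cstf2 and Fip1l1 also lay higher without overlap, with log2 changes of 1.72 ± 0.38 and 1.44 ± 0.32 (SE). Polr2l, a small subunit shared by RNA polymerases, lay lower without overlap, at 234, 353, 356 and 265 CPM in co-cultures, against 849, 945, 667 and 545 CPM in neurons alone (-1.32 ± 0.28, SE). Gstm1, a glutathione transferase with near-identical relatives, had a change of -2.19 ± 0.47 (SE) with overlap.

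The untreated cultures, which share no library with the loaded ones, give the microglia comparison without fibrils. All 15 genes had the same sign there, a count that is not set beside the share over all tested genes. Pdgfra changed by 2.34 ± 0.40, Lhfpl3 by 2.66 ± 0.51, Cacng4 by 1.89 ± 0.35, Thy1 by -2.46 ± 0.41 and Camk2n1 by -2.04 ± 0.36 (log2, SE), beside 2.99, 2.94, 1.75, -2.41 and -2.02 with fibrils. Sulf2 was at 0.58 ± 0.32, Srek1 at 0.92 ± 0.32, Gpi1 at -1.01 ± 0.37 and Sqstm1 at -1.02 ± 0.32 (log2, SE), beside 1.69, 1.70, -2.17 and -1.65 with fibrils. List medians without fibrils were 2.08 for precursor surface genes and -0.94 for glycolysis, but -0.21 for both Nrf2 targets and astrocyte genes, which had -1.23 and -1.39 with fibrils. The loaded neurons alone also had medians of 0.93 and 0.53 for these 2 lists over untreated neurons alone, a comparison that shares those 4 libraries. Differences between list medians were not tested.

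The difference between the effects with and without fibrils was tested directly. By edgeR 0 of 13139 genes (0.0%) differed, the smallest adjusted p was 0.999953, and 529 (4.03%) had an unadjusted p under 0.05; limma-voom called 0 and DESeq2 187. The genes with the smallest p, none passing, were the pseudogene Atp6v0c-ps2, whose reads are uncertain, and Ndufb4, Wdr83, Zcchc2 and Plin3. Zcchc2, a zinc finger protein, was at 24.9, 44.0, 52.7 and 44.6 CPM in loaded co-cultures, against 6.95, 9.81, 13.2 and 8.81 CPM in loaded neurons alone, a log2 change of 2.10 ± 0.57 that compares with -0.96 without fibrils. Plin3, a coat protein of lipid droplets, had no count in loaded co-cultures, against 16.3, 16.0, 12.7 and 10.1 CPM in loaded neurons alone. Ndufb4, a subunit of complex I, had a change of -1.19 ± 0.40 with fibrils and 1.10 without.

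**Figure D5:**
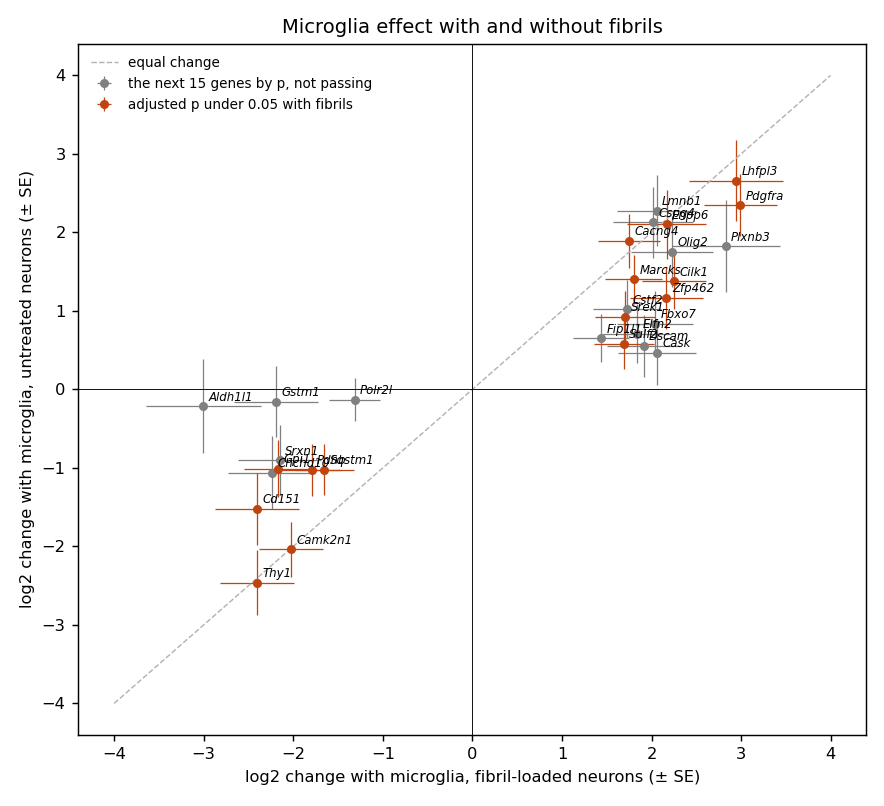
Log2 change with microglia in fibril-loaded neurons (x axis) against untreated neurons (y axis) for 30 genes, with SE bars. Red marks the 15 that passed in loaded neurons. The others are the next 15 by p there with mean log2 CPM above 2, predicted gene models left out. The dashed line marks equal change. All 15 that passed lie in the upper right or lower left quadrant, and Pdgfra, Thy1 and Camk2n1 lie near the line.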

How the data were processed

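Libraries were prepared with the QuantSeq 3′ FWD kit, per the labels' protocols. STAR, the build mm10 (GRCm38), Partek and DESeq2 appear without versions in the submitters' processing notes. How reads were counted, with which strand setting and whether by molecular identifier, was not stated there. Raw counts for 16934 gene symbols were deposited, along with a second table by the authors that holds a score per gene, their normalized values rounded to whole numbers, each entry at most 0.6 away from the count multiplied by 1 constant per library. Groups follow the treatment in each title, and replicate numbers only name runs of neighbouring library codes.

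Raw counts of all 16 libraries were fitted in R 4.3.3 with edgeR 4.0.16 and a mean per group: filterByExpr (minimum count 10, minimum total 15), TMM scaling, a robust quasi-likelihood fit, loaded co-culture minus loaded neurons alone, and Benjamini-Hochberg adjustment over 13139 genes at 0.05. The SE is the log2 change divided by the square root of F. Members, gene lists and tests were chosen with earlier results of these data known, so no list carries a test. Genes were named if they passed or had the next smallest p up to 30 (mean log2 CPM above 2, predicted gene models left out). Others were named as up to 4 members of a list with the smallest p and, for cell types, the most abundant 5. Hmox1, Gclm, Prdx1, Tmem119 and P2ry12 were named after their values were seen. No pair of libraries within a loaded group agreed within sampling noise (chi-square per degree of freedom 105 to 244). Alternatives used DESeq2 1.42.0, limma 3.58.1 (voom, or log2 of value plus 1 on the deposited scores), other scalings and filters, and left-out libraries. Of the symbols 96.2% matched GENCODE; Cilk1 was placed with RefSeq, which also gave the promoters. The scripts were tested on simulated data. The 3-count floor covers counting error only, since PCR copies are not independent molecules.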

Additional observations from a re-analysis of the deposited data

Results flagged for a closer look

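In 6 of 158 groups of 4 libraries examined, 1 library lay far from the other 3, where about 7.9 would be expected by chance. The summed microglial identity genes reached 1660 CPM in loaded co-culture replicate 1, against 120 CPM in the next co-culture. The summed neural progenitor genes reached 2168 CPM in co-culture replicate 4, against 1426 CPM in the next. Cd151 was at 87.3 CPM in co-culture replicate 2 with 49.8 CPM in the next, and Srxn1 at 676 CPM in co-culture replicate 4 with 221 CPM in the next. Among loaded neurons alone, replicate 3 had the highest vascular and fibroblast sum (30.8 CPM, against 10.7 CPM in the next) and the highest sum of endoplasmic reticulum chaperones (3686 CPM, against 2844 CPM in the next).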

How the results depend on the processing

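The 15 genes called by edgeR with all 16 libraries became 492 with DESeq2, 41 with limma-voom, 25 with limma on the authors' normalized values, 31 with library totals as the scaling (26 higher and 5 lower, against 9 and 6), 26 with no filter on low counts, 9 without the robust prior and 0 with the 8 loaded libraries alone; DESeq2 size factors gave 14 and leaving Rn45s out of the totals 15. Leaving out 1 loaded library at a time gave 1 to 26 genes, and leaving out the 4 libraries of code run 1, chosen after seeing the data, gave 32. Without both co-culture libraries rich in microglial transcripts, also chosen after seeing the data, 17 genes were called, 10 of them among the 15. A replicate block gave 42 genes, including all 15. Deviations from group means correlated at -0.012 to 0.078 between same-numbered libraries of the 2 groups. Differently numbered libraries of these groups correlated at -0.14 to 0.155. Over all 4 groups, same-numbered libraries correlated at -0.111 to 0.217. These values do not settle whether the numbers pair the libraries. The difference of the microglia effect with and without fibrils gave 187 genes with DESeq2 and 0 in each other fit that held all 4 groups. None of the 15 genes that passed, nor of the 15 named next by p, changed direction under these alternatives. For the 15 that passed, the groups did not overlap, so leaving out loaded libraries could hardly have reversed them. Other named genes were not followed through them, and Csf1r rests on co-culture replicate 1. Several list medians near 0, and that of the immediate early genes, changed sign under at least 1 of them; the medians of the oligodendrocyte, splicing, glycolysis, citrate cycle, respiratory, Nrf2, astrocyte, neuronal identity, excitatory-neuron, presynaptic and postsynaptic lists kept their sign under each. The cause of these changes was not tested. Depth limits the genes at or near 0 counts, microglial markers among them.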
